A study of Mus musculus with 4 samples.

Results

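The 9 genes described here encode parts of the mouse tight junction. They are the claudins Cldn2, Cldn3, Cldn4, Cldn7, Cldn8 and Cldn15, the membrane proteins Ocln and F11r, and the scaffold Tjp1. They were taken by symbol from a list of names, and all 9 were found in both of the authors' deposited tables, which together list 27425 genes. The RNA came from small-intestinal crypts of male C57BL/6J mice, 9 weeks old, with no altered gene named in the labels. Some mice were fed and others fasted for 24 hours, in each case either without tetracycline, an antibiotic, or with it for 21 days, which gives 4 groups. The series set out to learn how losing what the labels call AKK under tetracycline alters the response of the crypt to fasting. Crypts were shaken free in an EDTA buffer and made into single cells with trypsin, and the labels name no sort after that.

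The tight junction is the belt of membrane strands nearest the gut lumen that closes the space between neighbouring epithelial cells. Claudins build the strands. Some of them, such as claudin-2 and claudin-15, leave a pore for sodium and water, while others, such as claudin-3 and claudin-4, tighten the seal. In the small intestine claudin-2 is known mainly from the crypts, claudin-15 supplies luminal sodium for nutrient uptake, and occludin, JAM-A (the product of F11r) and ZO-1 (the product of Tjp1) organise and anchor the strands.

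The labels list 1 sample in each group, but the values in each deposited table come from 4 libraries, 2 fasted and 2 fed. The whole counts of each library were worked back from the deposited values. They summed to between 42577509 and 59015685 per library. Cldn8 and the further claudin Cldn18 were read at low counts, where counting error is large. A normalized count below is such a count divided by its library's size factor, and library 1 of a side is the one with the larger factor. The libraries could not be tied to the labelled samples, and whether they are separate animals, pools or repeat preparations is not given in the sources used here. Fold changes, standard errors (SE) and p-values are those of the authors' deposited tables, and the p-values measure only the spread between these libraries, which may be technical. Fold changes are read as fasted over fed from the word order of the tables' names. Every direction with fasting rests on that reading.

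Markers of epithelium were high in all 8 libraries. On a scale shared by the 8 libraries, the 6 epithelial genes summed to between 367283 and 732963 normalized counts. The 5 crypt base genes (Lgr5, Olfm4, Ascl2, Smoc2 and Axin2) were all present and summed to between 22837 and 103253. Enterocyte markers were abundant too, with 6 of the 8 listed genes summing to between 330933 and 1199530. The 6 lymphocyte markers summed to between 3077 and 17940 in 7 libraries and to 54632 in fed library 1 with tetracycline, which stood apart. The 8 stromal markers summed to between 139 and 1697.

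Windows of RefSeq sequence upstream of the annotated gene start (build GRCm38.p6) were found for 8 of the 9 genes, and Cldn8 did not match. The 250 bases before the start are shown for 4 claudins. Cldn2 and Cldn15 are both pore formers but were highest in different libraries. Cldn3 and Cldn4, both sealing claudins of chromosome 5, differed in how they varied across the groups. Each is written 5′ to 3′ on the gene's own strand, with TATAAA (the TATA box), TTTAT (the core read by CDX factors of the gut) and GGGCGG (the GC box) in capitals. Each motif was searched on both strands, so CCGCCC marks a GC box on the other strand and TATAAA also holds TTTAT read backwards. The windows lie at chrX:139800558-139800807 on the plus strand (Cldn2), chr5:136967619-136967868 plus (Cldn15), chr5:134985964-134986213 plus (Cldn3) and chr5:134946935-134947184 minus (Cldn4).
Cldn2: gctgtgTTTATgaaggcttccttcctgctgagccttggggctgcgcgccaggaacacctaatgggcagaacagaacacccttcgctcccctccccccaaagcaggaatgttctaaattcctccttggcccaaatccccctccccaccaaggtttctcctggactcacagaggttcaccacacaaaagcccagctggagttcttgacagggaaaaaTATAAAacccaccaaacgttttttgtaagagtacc
Cldn15: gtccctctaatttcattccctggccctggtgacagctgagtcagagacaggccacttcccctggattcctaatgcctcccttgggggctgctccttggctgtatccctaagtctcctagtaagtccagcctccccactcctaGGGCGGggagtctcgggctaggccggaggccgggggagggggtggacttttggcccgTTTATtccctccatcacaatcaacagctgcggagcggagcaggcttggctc
Cldn3: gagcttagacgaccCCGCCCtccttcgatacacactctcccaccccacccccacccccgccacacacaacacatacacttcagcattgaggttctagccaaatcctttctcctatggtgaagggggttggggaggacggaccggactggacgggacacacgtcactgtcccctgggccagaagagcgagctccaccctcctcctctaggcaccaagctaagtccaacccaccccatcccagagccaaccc
Cldn4: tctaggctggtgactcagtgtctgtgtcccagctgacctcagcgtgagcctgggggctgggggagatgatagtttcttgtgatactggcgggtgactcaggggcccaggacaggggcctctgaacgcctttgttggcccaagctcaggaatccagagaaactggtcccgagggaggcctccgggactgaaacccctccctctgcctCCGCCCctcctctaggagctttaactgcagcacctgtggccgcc
Of these windows, the one of Cldn2 alone held a TATAAA, and it held 2 matches to TTTAT, of which 1 is the one inside TATAAA, and no GC box. The Cldn15 window held 1 TTTAT and 1 GC box. Those of Cldn3 and Cldn4 held 1 GC box each and neither of the other motifs. Over the windows of all 32841 promoters, 12.4% held TATAAA, 37.3% held TTTAT and 32.7% held GGGCGG. These matches describe letters and not binding.

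Claudin-7, claudin-3 and claudin-15 RNA led the set. Without tetracycline, the mean over the 4 libraries per kilobase of merged exon was 20385 normalized counts for Cldn7, 19180 for Cldn3 and 12801 for Cldn15. F11r followed at 3843, Cldn4 at 3264, Cldn2 at 1865, Ocln at 1851 and Tjp1 at 713. Cldn8 stood far below all of them, at 47.5 per kilobase. With tetracycline the same 4 genes led, at 16351 for Cldn7, 15625 for Cldn3, 10595 for Cldn15 and 3227 for F11r. Cldn4, at 1142, came after Ocln (1961) and Cldn2 (1774) and ahead of Tjp1 (747) and Cldn8 (51.6).

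Not every step in this order was larger than the spread between libraries. Cldn7 exceeded Cldn3 in 2 of 4 libraries without tetracycline and in 3 of 4 with it, and their ranges overlapped. Cldn2 exceeded Ocln per kilobase in 2 of 4 libraries without tetracycline, while Ocln exceeded Cldn2 in 1 of 4 with it. From F11r down to Ocln without tetracycline, and from F11r down to Tjp1 with it, each gene's libraries overlapped with those of the next. Cldn3 exceeded Cldn15 in all 4 libraries of both tables, with overlapping ranges in the table with tetracycline. The gap from Cldn15 down to F11r, and that from Tjp1 down to Cldn8, held in all 4 libraries of both tables without overlap. The order was identical in both tables when the longest coding transcript was used as the length. The plot of normalized counts by library shows all 72 values behind these means.

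**Figure D1:**
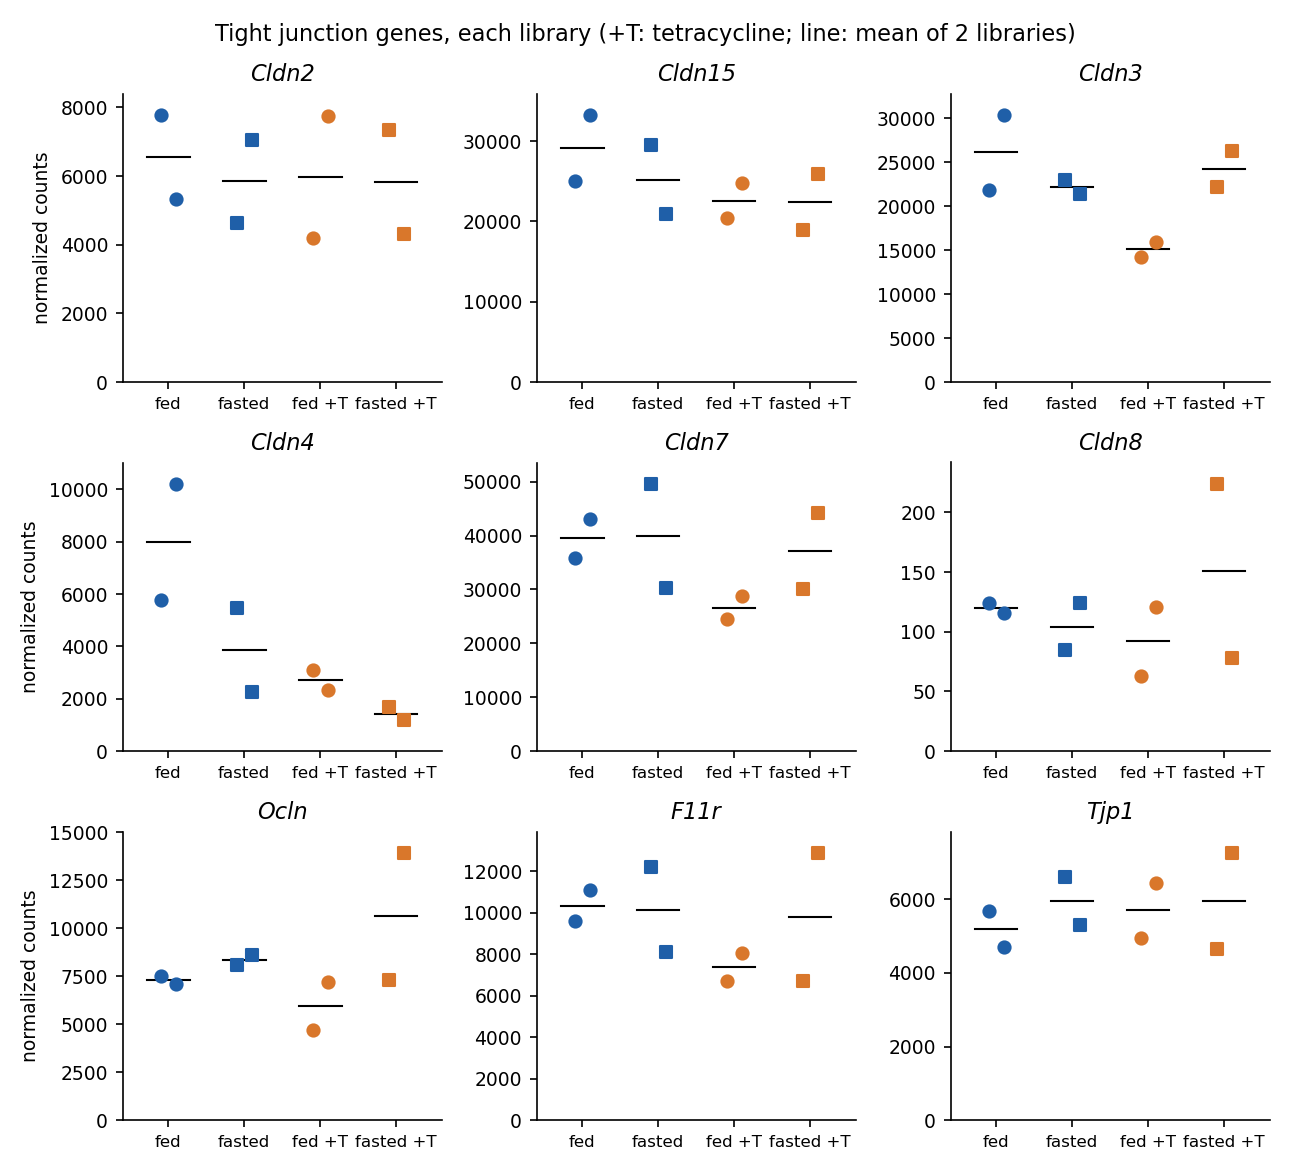
Normalized counts (vertical axes, from 0, on each table's own scale) of the 9 genes in every library, by group; +T is tetracycline, blue without and orange with it, circles fed and squares fasted, and each line is the mean of 2 libraries. Cldn4 is lowest in the fasted libraries with tetracycline, at 1693 and 1174, and Cldn8 stays at or below 224 throughout.

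None of the 9 genes passed the test for fasting in either table. In the authors' deposited tables, the DESeq2 p-value with Benjamini-Hochberg adjustment was under 0.05 for 0 of 9 genes without tetracycline, where 2.27% of all tested genes passed, and for 0 of 9 with it, where 0.6% passed. At an unadjusted p under 0.05 there was 1 gene in each table, Cldn4 both times, against 10.8% and 5.34% of all tested genes. The median change of the 9 genes was -0.16 on the log2 scale without and 0.41 with tetracycline, beside 0.01 and -0.02 over all tested genes. These medians rest on single libraries. Without tetracycline the median of the 9 was 0.02 when either fasted library 2 or fed library 2 was left out and -0.29 when fasted library 1 was. With tetracycline it was 0.17 without fasted library 2 and between 0.28 and 0.54 without any other library. Libraries of the fasted and fed side did not overlap for 2 of the 9 genes without tetracycline (44.5% of genes with a mean of at least 50) and for 4 of 9 with it (30.9%). Without tetracycline the fasted libraries were the higher ones for Ocln, beside 19.9% of those genes, and the lower ones for Cldn4, beside 24.6%. With tetracycline they were higher for Cldn3, Cldn7 and Ocln, beside 15.7%, and lower for Cldn4, beside 15.2%.

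Of the pore formers, Cldn2 showed nothing beyond its spread. Without tetracycline it had 4647 and 7052 normalized counts in the fasted and 7783 and 5326 in the fed libraries. With tetracycline the values were 7344 and 4301 fasted and 4212 and 7741 fed. Fasted and fed libraries overlapped in both tables, and libraries of 1 side differed by up to 1.84-fold. In the authors' deposited tables the log2 change was -0.16 (SE 0.32) without tetracycline, a 95% interval from 1.73-fold lower to 1.37-fold higher. With tetracycline it was -0.04 (SE 0.50) in the authors' deposited table, from 2.03-fold lower to 1.93-fold higher.

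Cldn15 overlapped likewise. Its fasted libraries held 29520 and 20912 and its fed libraries 25059 and 33267 normalized counts without tetracycline. With tetracycline these were 18944 and 25962 fasted and 20383 and 24727 fed. The authors' deposited tables gave log2 changes of -0.21 (SE 0.29) and -0.01 (SE 0.39), and the wider interval, with tetracycline, ran from 1.71-fold lower to 1.70-fold higher.

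The pore formers divided the 8 libraries differently, as the plot against crypt base markers shows. On the shared scale the 4 libraries highest in Cldn2 were the 4 highest in the summed crypt base markers, and the same was true of Cldn8, while this held for 6.29% of genes with a mean of at least 50 in both tables. For Cldn8 the fourth and the fifth library were close, at 118 and 117 normalized counts. Cldn2 ranged from 7168 to 7921 in those 4 libraries and from 4142 to 5400 in the others. Their crypt base sums were 74250 (fasted library 2) and 103253 (fed library 1) without tetracycline and 88391 (fasted library 1) and 99537 (fed library 2) with it, against 22837 to 66260 in the others. Olfm4 made up 77.9% to 89% of that sum. Taken singly, Olfm4 and Smoc2 had the same 4 highest libraries as Cldn2, and Lgr5, Ascl2 and Axin2 shared 3 of them. By Lgr5 and Ascl2, fasted library 1 without tetracycline (1022 and 622) stood above fed library 1 (677 and 563), the library highest in Cldn2. The 6 proliferation markers, summed, had the same 4 highest libraries, at 34112 to 50575 against 22569 to 32770 in the others. The split is thus not particular to crypt base markers. The 4 libraries include 1 of each group, so the split follows neither feeding nor tetracycline. Cldn15, Cldn3, Cldn7, Ocln and F11r shared 3 of their 4 highest libraries with the 4 highest in enterocyte markers, and Cldn4 and Tjp1 shared 2. Sharing at least 3 was common, at 33.7% of the same genes. The pattern was noticed in these libraries, it carries no test, and the part that cell mixture has in it was not tested.

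The ratio of the pore formers within a library does not depend on how libraries are scaled. Cldn2 counts were 15.7% and 33.7% of Cldn15 counts in the fasted and 31.1% and 16% in the fed libraries without tetracycline. With tetracycline they were 38.8% and 16.6% fasted and 20.7% and 31.3% fed. The 4 libraries with the highest crypt base sum had 31.1% or more and the other 4 had 20.7% or less. These 4 are also the highest in Cldn2 itself, so this split largely repeats the one above. How many other pairs of genes show it was not counted. In bulk RNA such as this, fewer cells of a type and less RNA per cell cannot be told apart.

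**Figure D2:**
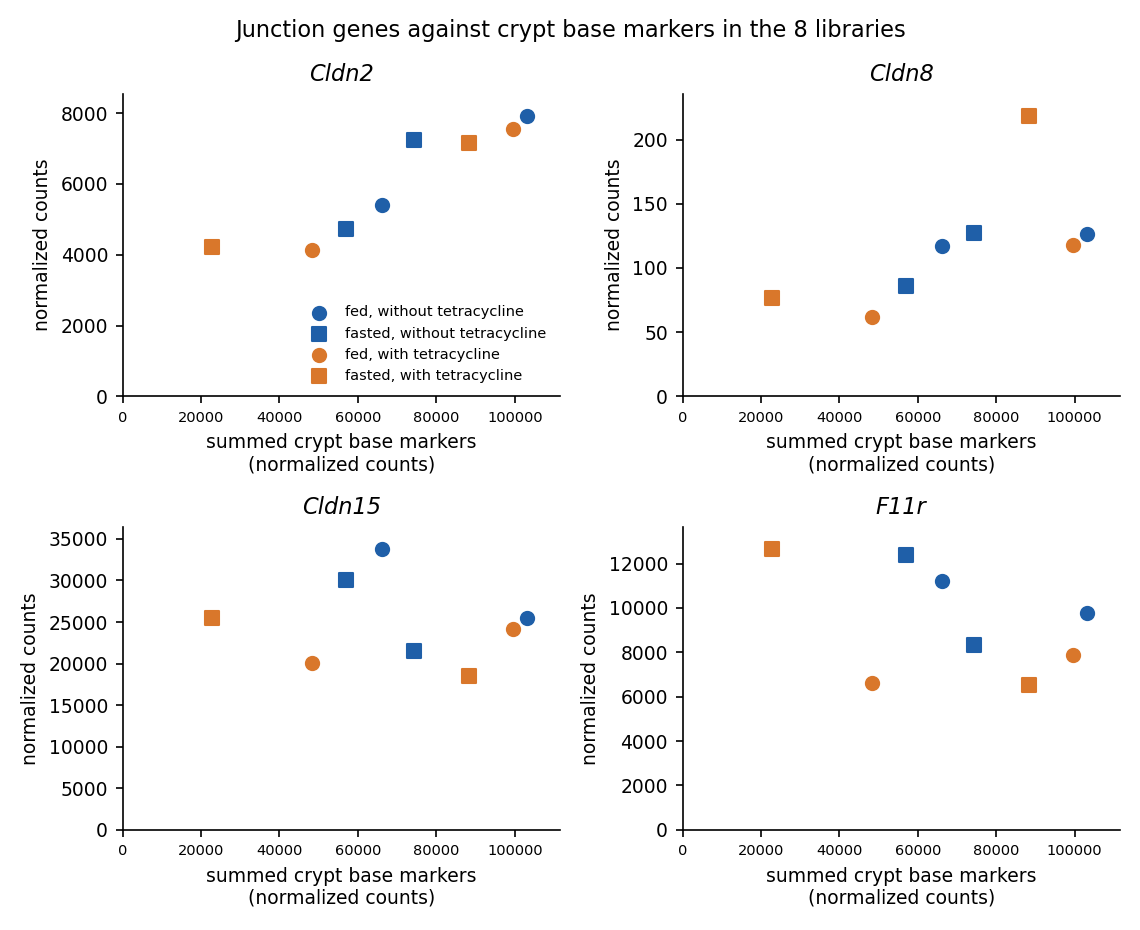
Normalized counts of Cldn2, Cldn8, Cldn15 and F11r (vertical axes, from 0) against the sum of 5 crypt base markers (horizontal axes, normalized counts) in the 8 libraries on a shared scale; blue without and orange with tetracycline, circles fed and squares fasted. The 4 libraries to the right hold the 4 highest values of Cldn2 (7168 to 7921) and of Cldn8, and not those of Cldn15 or F11r.

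Among the sealing claudins, Cldn4 gave the largest difference between fasted and fed mice, and it did not pass the test. Without tetracycline it had 5474 and 2249 normalized counts in the fasted and 5772 and 10213 in the fed libraries. With tetracycline it had 1693 and 1174 in the fasted and 3096 and 2336 in the fed libraries. Both fasted libraries lay below both fed ones in each table, which held for 7.47% of genes with a mean of at least 50 in both. The margin without tetracycline was small, 5474 against 5772.

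The authors' deposited tables gave Cldn4 a log2 change of -1.05 (SE 0.42) without tetracycline, with a DESeq2 p of 0.0118 and a Benjamini-Hochberg adjusted p of 0.225. With tetracycline the authors' deposited table gave -0.92 (SE 0.42), with a DESeq2 p of 0.0283 and an adjusted p of 0.809. The 95% intervals ran from 3.65-fold to 1.17-fold lower without tetracycline and from 3.35-fold to 1.07-fold lower with it. Leaving out any 1 library kept the sign but not the size. Without tetracycline the ratio of means was -0.55 on the log2 scale when fasted library 2 was left out and -0.58 when fed library 2 was. With tetracycline the values lay between -1.21 and -0.68.

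Cldn3 did not follow Cldn4. Without tetracycline its libraries overlapped, with 22951 and 21403 normalized counts fasted and 21843 and 30396 fed. With tetracycline both fasted libraries (22163 and 26310) lay above both fed ones (14232 and 15981). The authors' deposited table with tetracycline gave a log2 change of 0.68 (SE 0.36), from 1.02-fold lower to 2.63-fold higher, with a DESeq2 p of 0.0600 and an adjusted p of 0.979. Without tetracycline the authors' deposited table gave -0.24 (SE 0.27), from 1.71-fold lower to 1.23-fold higher. Exons of Cldn3 share bases with Wbscr25, and the kit does not keep the strand, so its counts may hold reads of that gene.

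Cldn7, a claudin that EpCAM holds at the cell surface, was the most abundant of the set per kilobase in both tables. It had 49593 and 30257 normalized counts fasted and 35892 and 43098 fed without tetracycline, which overlapped. With tetracycline both fasted libraries (30029 and 44173) were above both fed libraries (24494 and 28712). The authors' deposited tables gave log2 changes of 0.02 (SE 0.31) and 0.48 (SE 0.40), with intervals from 1.503-fold lower to 1.54-fold higher and from 1.24-fold lower to 2.41-fold higher. Without fasted library 2 with tetracycline, the ratio of means of Cldn7 was 0.17 on the log2 scale.

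Cldn8, a sealing claudin known mainly from the colon and kidney, was read at 57 to 272 counts per library. Without tetracycline it had 84.4 and 124 normalized counts fasted and 124 and 116 fed. With tetracycline it had 224 and 78.4 fasted and 63.0 and 121 fed. The groups overlapped in both tables. The authors' deposited tables gave -0.21 (SE 0.43) and 0.73 (SE 0.70) on the log2 scale. The value with tetracycline rests on fasted library 1, since the ratio of means without that library was -0.23.

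The other membrane proteins differed from one another in spread. Ocln, which encodes occludin, was even without tetracycline, at 8069 and 8617 normalized counts fasted and 7486 and 7094 fed. With tetracycline it had 7312 and 13923 fasted and 4687 and 7201 fed. Both fasted libraries were above both fed ones in each table, with tetracycline by 7312 against 7201. The authors' deposited tables gave log2 changes of 0.19 (SE 0.24), from 1.22-fold lower to 1.59-fold higher, and 0.84 (SE 0.49), from 1.09-fold lower to 3.49-fold higher. With tetracycline the DESeq2 p was 0.0891 in the authors' deposited table, and the ratio of means was 0.30 on the log2 scale without fasted library 2.

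F11r, the gene of the adhesion molecule JAM-A, overlapped in both tables. It had 12181 and 8100 normalized counts fasted and 9583 and 11067 fed without tetracycline, and 6710 and 12879 fasted and 6726 and 8060 fed with it. The highest library of each table was fasted library 1 without and fasted library 2 with tetracycline, the 2 libraries with the highest enterocyte sums (1199530 and 1187510). The authors' deposited tables gave log2 changes of -0.03 (SE 0.29) and 0.41 (SE 0.47). With tetracycline the ratio of means was -0.14 on the log2 scale without fasted library 2.

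Tjp1, the gene of the scaffold ZO-1 that ties the strands to actin, had 6601 and 5298 normalized counts fasted and 5674 and 4699 fed without tetracycline. With tetracycline it had 4655 and 7260 fasted and 4958 and 6452 fed. The groups overlapped in both tables. The authors' deposited tables gave log2 changes of 0.20 (SE 0.27), from 1.26-fold lower to 1.65-fold higher, and 0.06 (SE 0.43), from 1.71-fold lower to 1.87-fold higher.

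**Figure D3:**
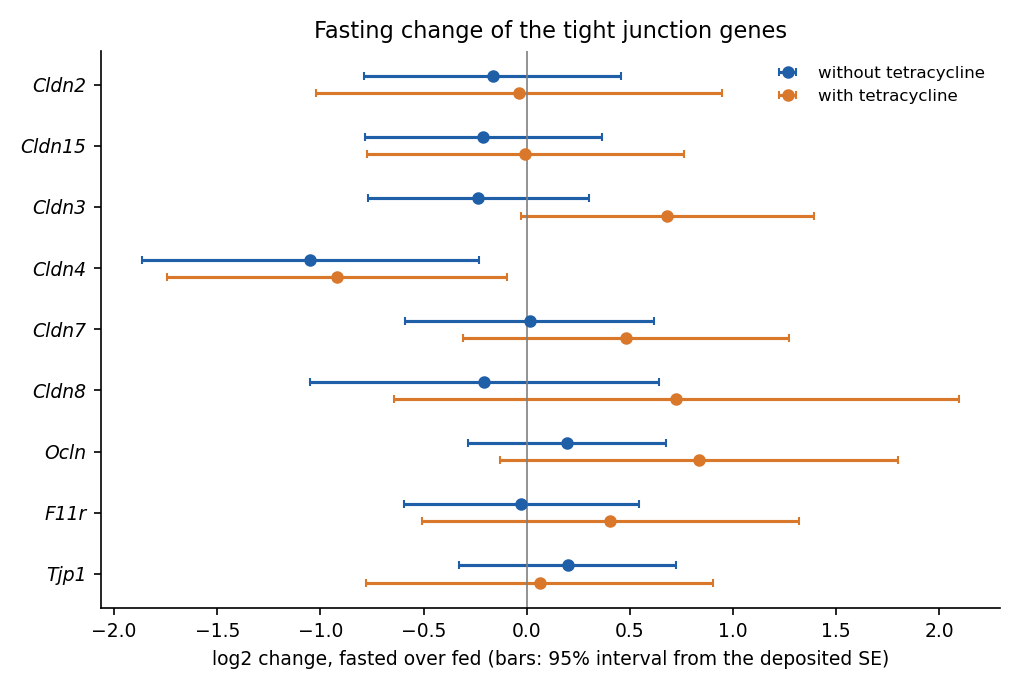
Log2 change of each gene in fasted over fed mice (horizontal axis), from the authors' deposited tables, without (blue) and with (orange) tetracycline; bars are 95% intervals from the deposited standard errors and do not adjust for the number of genes tested. The intervals of Cldn4 alone leave 0 out, at -1.05 without and -0.92 with tetracycline.

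Fed library 1 with tetracycline, the one high in lymphocyte markers, was also left out of the fasting changes. The log2 ratio of means with tetracycline was then 0.60 for Cldn3, 0.37 for Cldn7, 0.56 for Ocln and -0.70 for Cldn4, each with the sign it had before. Cldn2 (-0.41), Cldn15 (-0.14), Cldn8 (0.32) and F11r (0.28) also kept their signs. That of Tjp1 turned, from 0.06 to -0.12.

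Whether tetracycline altered the fasting change was tested gene by gene, as the change with minus that without tetracycline over the root of the summed squared SE. With Benjamini-Hochberg adjustment over the 17571 genes that have an adjusted p in both tables, this Wald test called 0 of the 9 genes, beside 0.0228% of all genes. At an unadjusted p under 0.05 it gave 1 of 9, Cldn3, beside 1.05% of all genes. The Cldn3 difference was 0.92 on the log2 scale (SE 0.45, 95% interval 0.03 to 1.81), with a Wald p of 0.0432 and a Benjamini-Hochberg adjusted p of 0.99997. For Cldn4 the difference was 0.13 (SE 0.59), and its interval of -1.03 to 1.29 leaves room for a change in either direction.

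Levels with and without tetracycline come from tables that the authors scaled separately, so they are described and not tested. Cldn4 was lower with tetracycline in both feeding states. The log2 ratio of its means, centred on the median gene, was -1.62 in fed and -1.49 in fasted mice. A level lower by at least 1 in both states occurred for 0.474% of genes with a mean of at least 1. Before centring, the median gene was 0.06 higher with tetracycline in both states. On the shared scale Cldn4 had 5577 and 2311 normalized counts fasted and 5874 and 10356 fed without tetracycline, and 1653 and 1152 fasted and 3044 and 2283 fed with it. Within each feeding state both libraries with tetracycline were below both without it, which held for 1.77% of genes with a mean of at least 50 in both tables. Across states they crossed, since 3044 (fed, with) exceeded 2311 (fasted, without).

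The lower Cldn4 was also visible against its fellow claudins in the same library, where scaling has no part. Cldn4 was 23.8% and 10.5% of Cldn3 counts in the fasted and 26.4% and 33.6% in the fed libraries without tetracycline. With tetracycline it was 7.64% and 4.46% fasted and 21.8% and 14.6% fed. Against Cldn7 the shares were 11% and 7.43% fasted and 16.1% and 23.7% fed without tetracycline, and 5.64% and 2.66% fasted and 12.6% and 8.14% fed with it. In each feeding state both shares with tetracycline lay below both without it for either partner. These shares use the same Cldn4 counts as above, so they are no separate observation. How often other pairs of genes split this way was not counted. Leaving out each library in turn, the ratio of Cldn4 with over without tetracycline, 0.328 fed and 0.356 fasted, lay between 0.257 and 0.453 fed and between 0.251 and 0.607 fasted. Without fed library 1 with tetracycline, the one rich in lymphocyte markers, the fed ratio was 0.281. The summed lymphocyte markers were 5793 to 16244 without and 3077 to 54632 with tetracycline. A list of 8 follicle-associated and M cell markers was added after seeing the data, because Cldn4 is known from that epithelium. It summed to 5439 to 6587 without and 3998 to 6184 with tetracycline. Most of that sum came from Ccl9, Spib and Marcksl1, while Gp2 (8.08 to 20.4) and Sox8 (0 to 9.485) were near the floor. The sum is therefore a poor measure of M cells. Summed over 4 of 5 genes, goblet cell markers were at 80853 to 123195 in the 4 libraries with tetracycline. All 4 without it were higher, at 138561 to 191582. Taken singly, none of these 4 genes divided the libraries so. In fed library 2, Muc2 was 58167 with and 55425 without tetracycline, and in fasted library 2, Tff3 was 42677 with and 41153 without it. The share of all genes with such a split was not counted. The part of these cells in the lower Cldn4 was not tested.

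For the other genes the comparison in fed mice depended on what the levels were measured against. Centred on the median gene, most were lower with tetracycline. The fed log2 ratio on that scale was -0.85 for Cldn3, -0.63 for Cldn7, -0.54 for F11r, -0.43 for Cldn15 and -0.35 for Ocln. Together with Cldn4, these 6 of 9 genes had both fed libraries with tetracycline below both without it, against 22.7% of genes with a mean of at least 50 in both tables. Without fed library 1 with tetracycline, rich in lymphocyte markers, the fed ratio with over without tetracycline on the shared scale was 0.589 for Cldn3 (0.558 with it), 0.699 for Cldn7 (0.65), 0.751 for F11r (0.691), 0.816 for Cldn15 (0.746) and 0.95 for Ocln (0.786). In fasted mice this order of libraries held for Cldn4 alone, 1 of 9, against 8.39%. The fasted ratios were 0.06 for Cldn3, -0.17 for Cldn7, -0.11 for F11r, -0.23 for Cldn15 and 0.28 for Ocln. On the same scale Cldn2 was at -0.19 fed and -0.07 fasted, Tjp1 at 0.08 and -0.06, and Cldn8, on low counts, at -0.45 and 0.47. Centred instead on the 6 epithelial markers, the fed ratio was -1.19 for Cldn4, -0.43 for Cldn3, -0.21 for Cldn7, -0.12 for F11r, -0.02 for Cldn8 and -0.01 for Cldn15. It was above 0 for Ocln (0.07), Cldn2 (0.23) and Tjp1 (0.50), so the signs of Ocln and Cldn2 turned. In fasted mice that centring left Cldn4 at -1.38 and turned the signs of Cldn2 (0.05), Tjp1 (0.06) and F11r (0.00).

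**Figure D4:**
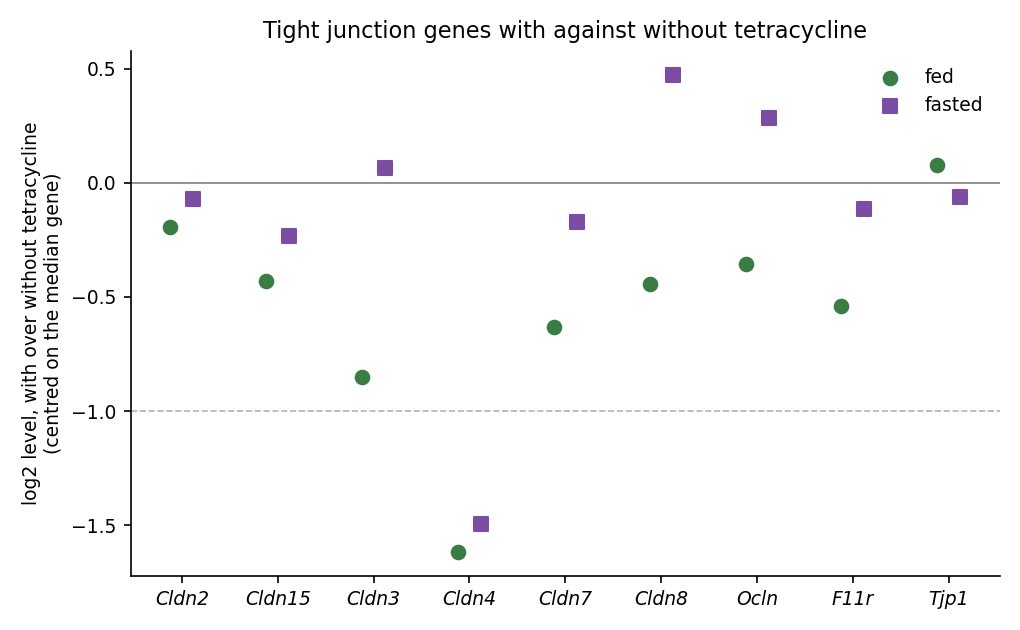
Log2 ratio of the mean level with over without tetracycline (vertical axis, centred on the median gene) for each gene in fed (green circles) and fasted (purple squares) mice; each point compares means of 2 libraries and has no error of its own. Cldn4 alone lies below the dashed line at -1 in both states, at -1.62 and -1.49.

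The other junction genes were set beside these from fixed lists of claudins, further tight junction membrane proteins, plaque proteins, adherens junctions and desmosomes, 72 listed genes in all. Without tetracycline 63 of them had an adjusted p, and the authors' deposited table called 0 of these 63 (DESeq2, Benjamini-Hochberg), beside 2.27% of all tested genes, and 3 at an unadjusted p under 0.05, beside 10.8%. With tetracycline 61 had one, and the authors' deposited table called 1, Cldn18, beside 0.6% of all tested genes, with 3 at an unadjusted p under 0.05, beside 5.34%. Their median change was 0.13 without and 0.04 with tetracycline, and it changed sign with 1 library left out, to -0.09 without fasted library 1 in the former and to -0.13 without fasted library 2 or -0.01 without fed library 1 in the latter. Of the 27 plaque genes with an adjusted p, 22 were higher in fasted mice without and 10 with tetracycline, where 50.5% and 48.2% of all tested genes were higher. Leaving out fasted library 1, the 22 became 14. With tetracycline, among the 26 with recovered counts, 9 were higher, and 15 without fasted library 1. Of the further tight junction membrane genes with an adjusted p, 6 of 11 were higher in fasted mice without tetracycline and 9 of 9 with it, by 0.04 to 0.70. None of the 9 passed the DESeq2 test (0 at an unadjusted p under 0.05). The counts rest on single libraries, since without fasted library 2 the 9 became 5 with tetracycline and without fasted library 1 the 6 became 3 without it.

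Cldn18, the claudin of stomach and lung, fell with fasting under tetracycline, at a very low level. It had 0 and 7 counts in the fasted and 66 and 169 in the fed libraries, or 0 and 9.63 against 52.0 and 182 normalized counts. The authors' deposited table gave a log2 change of -4.72 (SE 1.19), with a DESeq2 Benjamini-Hochberg adjusted p of 0.0184. Of all tested genes in that table, 0.267% passed in this direction. The ratio of means was -4.60, and it was -3.43 without fed library 2 and -3.60 without fasted library 1. Without tetracycline Cldn18 had 4.59 and 10.8 fasted and 3.97 and 20.1 fed normalized counts, and the authors' deposited table gave -0.66 (SE 1.27, DESeq2 adjusted p 0.947). The Wald difference between the tables was -4.06 (SE 1.74, p 0.0198, adjusted p 0.99997). The summed markers of the gastric surface were highest in the same libraries. The sum over 5 of 5 genes was 2585 and 9143 in the fed libraries with tetracycline and 1145 and 474 in the fasted ones, and Gkn2 alone stood at 726 and 3018 fed against 0 and 54.0 fasted. Gkn3 did not follow, at 513 and 755 fed against 1143 and 343 fasted, and made up nearly all of the sum of 1145 in fasted library 1. The part of gastric tissue in the Cldn18 result was not tested.

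The 2 most abundant genes of each list did not pass the test in either table. Of the claudins, Cldn12 had log2 changes of 0.15 (SE 0.26) without and 0.31 (SE 0.46) with tetracycline in the authors' deposited tables. Cldn23 had -0.54 (SE 0.31) and 0.62 (SE 0.46) in the authors' deposited tables. Of these 10 genes it alone had a Wald p of the difference between tables under 0.05 (1.16, SE 0.55, p 0.0353, adjusted p 0.99997). In the membrane list, the authors' deposited tables gave Lsr, a protein of tricellular junctions, -0.09 (SE 0.25) and 0.49 (SE 0.40). Cxadr, an adhesion receptor, had -0.02 (SE 0.28) and 0.44 (SE 0.51) in the authors' deposited tables. Both were below 0 without and above 0 with tetracycline, within 95% intervals that include 0.

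The 2 most abundant plaque genes had small values. In the authors' deposited tables Tjp3, the scaffold ZO-3, had 0.04 (SE 0.25) and 0.03 (SE 0.35), and Ybx3, a factor that binds ZO-1, had -0.21 (SE 0.25) and 0.02 (SE 0.44). Each of these 4 values was smaller than its SE. In the adherens junction, Cdh1 (E-cadherin) had changes of 0.19 (SE 0.25) and 0.36 (SE 0.43) and Ctnnb1 of 0.00 (SE 0.26) and -0.15 (SE 0.36) in the authors' deposited tables. Of the desmosome genes, the authors' deposited tables gave Dsp 0.22 (SE 0.29) and -0.06 (SE 0.39), and Dsg2 0.13 (SE 0.27) and 0.51 (SE 0.49). The most abundant genes do not stand for their lists. With tetracycline the changes of the 8 desmosome genes ran from -0.39 to 0.86 and those of the 10 adherens junction genes from -0.22 to 1.03.

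**Figure D5:**
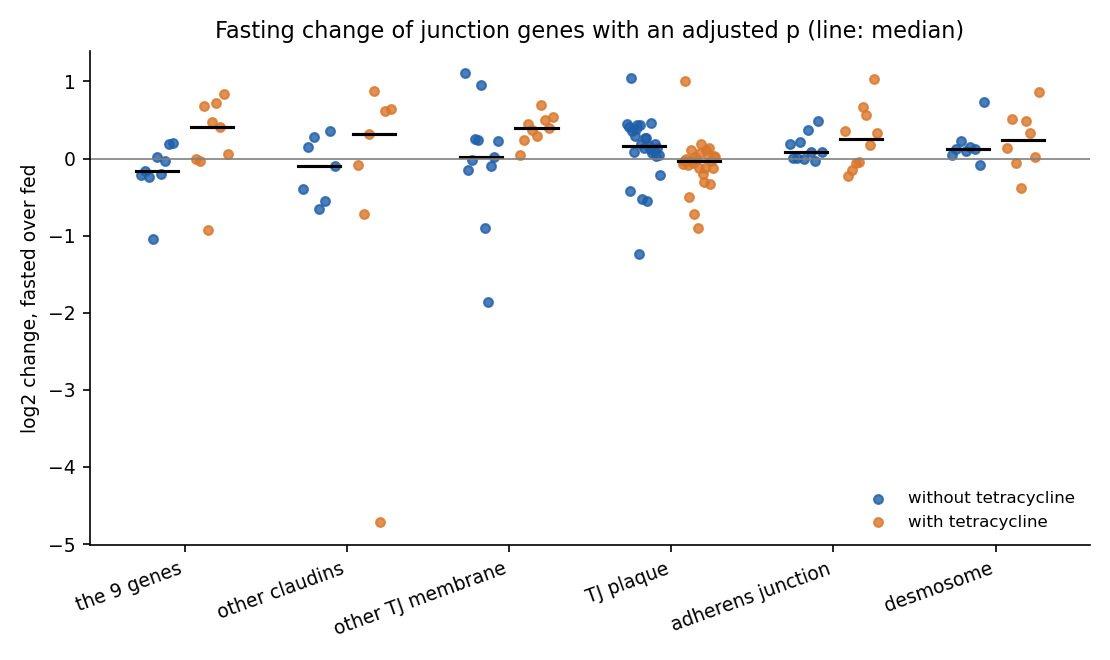
Log2 change in fasted over fed mice (vertical axis) of every junction gene with an adjusted p in the authors' deposited tables, by list; blue without and orange with tetracycline, 1 point per gene, and each line is the list's median. The point at -4.72 among the other claudins is Cldn18, and the lowest of the 9 genes in each table is Cldn4.

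Lists of genes that work with claudins are short, so that 0 calls is close to what the share over all genes gives (2.27% without and 0.6% with tetracycline). Of 11 tested transcription factors known to act on claudin or junction genes, such as Cdx2 and Hnf4a, 0 passed in either of the authors' deposited tables (0 at an unadjusted p under 0.05 as well), with medians of 0.04 and 0.06. With tetracycline the latter was -0.28 without fasted library 2 and -0.13 without fed library 1. Of 5 surface partners around EpCAM, which stabilises claudin-7, 0 passed, again with 0 at an unadjusted p under 0.05, and the medians were 0.14 and 0.57. With tetracycline the median was 0.06 without fasted library 2, and without tetracycline it was -0.11 without fasted library 1 and -0.01 without fed library 1. The last list held 9 genes for transport of ions, nutrients or bile acids, some of which take up the sodium that pore claudins let through. Of these 9, 0 passed in the authors' deposited tables (DESeq2, Benjamini-Hochberg). At an unadjusted p under 0.05 there were 3 without and 1 with tetracycline, beside 10.8% and 5.34% of all tested genes. The medians were 0.67 and 0.49, and 8 of 9 genes were higher in fasted mice in each table, beside 50.5% and 48.2% of all tested genes. Both values rest on the enterocyte-rich fasted library of each table. Without fasted library 1, the median was 0.14 without tetracycline (5 of 8 genes with recovered counts higher). Without fasted library 2, it was -0.54 with tetracycline (2 of 9 higher). The enterocyte marker sum was highest in 1 fasted library of each table (1199530 and 1187510 against 330933 to 646740 in the other 6), and its part in these medians was not tested.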

How the data were processed

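The material was 2 deposited tables of the authors' fasting comparisons in crypt RNA, without and with tetracycline. Salmon, DESeq2 and the mm10 build are named in the submitters' processing notes, and versions and annotation release are not given in the sources used here. Per the file headers, the authors' mean is a signal (size-factor-normalized counts averaged over libraries), the fold change and SE are log2 values, the Wald statistic is a score, and p-values are raw and Benjamini-Hochberg adjusted. The tables have 0 unused per-sample columns.

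Whole counts per library were recovered as the integers that give both the deposited mean and, under the authors' model, the deposited fold change. Exactly 1 set was found for 99.9% of genes with a mean of 1 to 100000 in each table (22729 of 22750 and 23253 of 23275). On simulated data 200 of 200 and 199 of 200 genes came back. No count model was run on them, since the labels list 1 sample per group. The design expected values per sample, so the deposited tests are used.

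Calls are an adjusted p under 0.05. Intervals are the log2 change ± 95% normal limits. Side means were rebuilt from mean and fold change, and levels across tables used pseudocount 1 and the median log2 ratio. A scaling of the 8 libraries together, by median of ratios over 18616 genes, was added after seeing the data. Shares of non-overlapping genes are over 13269 genes without and 13506 with tetracycline (mean at least 50), or 13109 in both. Lengths and the exon overlap of Cldn3 come from exon coordinates of GENCODE M21, to which 99.3% of identifiers matched without version. No coordinates of that release are printed here. Named genes are all 9, plus each other junction gene called and the 2 most abundant of each junction list. The genes and lists were chosen with earlier results of these data known. Alternatives covered the adjusted p threshold, the filter on low means, centring, the pseudocount and leaving out each library. Python 3.11.15, NumPy 2.4.6, pandas 2.3.3, SciPy 1.17.1, Numba 0.67.0 and Matplotlib 3.10.9 were used.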

Additional observations from a re-analysis of the deposited data

How the results depend on the processing

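Of the 19 alternatives for the counts of called genes, 18 stayed within 1.5 times the main count, as did the 8 for the number of levels lower by at least 1 with tetracycline. At an adjusted p under 0.01 the other junction genes called with tetracycline went from 1 to 0. Over thresholds, filters and centring, 0 of the 9 genes were called for fasting in either table or for the difference. Of 162 alternative values for the 9 fasting changes, 151 lay within 1 SE of the main value and 140 kept its sign. The 11 that moved further all left out 1 library. Leaving out a library gave Cldn4 from -1.83 to -0.55 without and from -1.21 to -0.68 with tetracycline. The centred log2 level of Cldn4 with over without tetracycline lay between -1.62 and -1.19 fed and between -1.49 and -1.38 fasted over the scalings tried. Centring on the epithelial markers turned the sign of the level of Cldn2 and Ocln in fed and of Cldn2, F11r and Tjp1 in fasted mice. No paired analysis was possible because the labels list 1 sample per group and the libraries carry no replicate number. With 2 libraries a side, the farther bound of the 95% interval of a fasting change lay between 1.51-fold (F11r without) and 4.27-fold (Cldn8 with tetracycline), which is the largest change each interval includes.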
